A study of Mus musculus with 6 samples.

Results

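The T cell receptor alpha chain is encoded by V, J and constant gene segments at 1 locus, and the V (Trav) and J (Traj) segments are described here as they appear in the RNA of marrow cells selected for CD8. The members were every row of the gene count table whose symbol begins with Trav or Traj and whose deposited biotype is a T cell receptor segment. There were 188 of them among 54532 genes, 128 Trav (20 annotated as pseudogenes) and 60 Traj (9 annotated as pseudogenes). They lie on the plus strand of chromosome 14 between 52427928 and 54218842 (GRCm38, the assembly of mm10). The Traj cluster runs from 54155005 to 54218842, and the constant gene Trac follows at 54220521 to 54224206, 1678 bases after Traj1.

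RNA was sequenced from 6 pools of bone marrow cells taken with CD8 microbeads from female CByB6F1 mice aged 2 to 5 months. All 6 pools came from mice with bone marrow failure (BMF), an immune-mediated loss of marrow, and each held cells of 2 to 3 mice. Pools 1, 2 and 3 came from mice treated with ruxolitinib, a drug that blocks JAK1 and JAK2 in cytokine signalling, and pools 4, 5 and 6 from control mice with BMF. The sources used here give neither dose nor duration, nor how the disease was set up, and T cells of a donor and of the host cannot be told apart in these counts. A pool mixes the receptors of its mice, and an expansion in 1 mouse and a use shared by its mates cannot be separated.

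During T cell development in the thymus the RAG recombinase joins 1 Trav to 1 Traj, and the intron between the Traj and Trac is spliced out, so that the mature RNA holds V, J and constant sequence. The alpha locus can rearrange again on the same chromosome, each round using a V farther 5′ and a J farther 3′ than the last. The junction of V and J forms the third complementarity-determining region, and a population dominated by a few clones shows a few segments with a large share of the reads.

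The members on which the results turn are shown first. The J segments below carried most of the Traj counts in 1 or more pools, or differed between the groups, or, for Traj18, encode the invariant chain of natural killer T cells. Capitals mark the conserved J motif of a phenylalanine and 2 glycines, searched on the coding strand alone as a codon TTN, a codon GGN, any codon, and then GG. Leucine codons that begin with TT match it too, and a J with another residue in place of the phenylalanine does not. The coordinates are chr14:54174742-54174798 for Traj43, chr14:54195638-54195700 for Traj24, chr14:54198790-54198846 for Traj21, chr14:54199441-54199498 for Traj20, chr14:54200777-54200842 for Traj18, chr14:54213777-54213838 for Traj5, chr14:54217292-54217357 for Traj3, chr14:54217836-54217901 for Traj2 and chr14:54218814-54218842 for Traj1. Sequences were read from the transcripts of GENCODE M21 (GRCm38), in which all 188 members had the deposited coordinates.
Traj43: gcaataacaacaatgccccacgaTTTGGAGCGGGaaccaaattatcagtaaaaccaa
Traj24: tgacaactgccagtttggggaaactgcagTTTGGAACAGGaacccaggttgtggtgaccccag
Traj21: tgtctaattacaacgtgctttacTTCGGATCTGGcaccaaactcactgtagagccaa
Traj20: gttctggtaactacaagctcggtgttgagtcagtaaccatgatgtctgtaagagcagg
Traj18: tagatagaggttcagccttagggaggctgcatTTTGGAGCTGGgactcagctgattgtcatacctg
Traj5: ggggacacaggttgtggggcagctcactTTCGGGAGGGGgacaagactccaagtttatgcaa
Traj3: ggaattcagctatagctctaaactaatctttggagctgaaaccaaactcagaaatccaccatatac
Traj2: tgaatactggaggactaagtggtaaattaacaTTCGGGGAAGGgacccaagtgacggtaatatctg
Traj1: gtgtgcagatagctgctccatctttcctg
The motif was present in 46 of the 60 Traj members (76.7%) and in 44 of the 51 not annotated as pseudogenes (86.3%). Among those printed, its letters were not found in Traj20, Traj3 and Traj1, and Traj1 is annotated as a pseudogene.

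For the V segments, the last 60 bases of the transcript are shown, which end at the joining point. Capitals mark TANNNCTGN (coding strand), which covers the codons around the second conserved cysteine. It was found in the last 30 bases of 123 of 128 Trav members (96.1%). The segments are the 6 that were highest in at least 1 pool, by count or by count per base. Their genes lie at chr14:52622566-52623082 (Trav5-1), chr14:53370077-53370575 (Trav14n-3), chr14:53461099-53461738 (Trav7-4), chr14:53590857-53591514 (Trav9-2), chr14:53616315-53616914 (Trav12-2) and chr14:53665929-53666506 (Trav3-3).
Trav5-1: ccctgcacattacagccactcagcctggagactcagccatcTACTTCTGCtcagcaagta
Trav14n-3: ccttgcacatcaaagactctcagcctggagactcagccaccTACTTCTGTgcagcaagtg
Trav7-4: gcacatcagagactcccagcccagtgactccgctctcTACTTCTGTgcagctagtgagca
Trav9-2: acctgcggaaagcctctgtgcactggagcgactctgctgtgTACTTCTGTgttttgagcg
Trav12-2: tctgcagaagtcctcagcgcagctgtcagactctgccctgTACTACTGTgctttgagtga
Trav3-3: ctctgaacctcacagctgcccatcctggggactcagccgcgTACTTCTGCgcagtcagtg

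Reads on the segments were few. The libraries held 13829808 to 17708196 counts. Of the 188 members, 123 had at least 1 count in some pool (86 Trav and 37 Traj) and 65 had none (42 Trav and 23 Traj). Only 10 members, all Trav and none a pseudogene, passed the filter on low counts. A further description of the cells bears on every value here. The summed level of 14 T cell identity genes (the CD3 chains, CD8 chains and others) was 1462 to 4011 CPM (counts per 1e6 of the TMM-scaled library) in the ruxolitinib pools and 7211 to 8896 in the controls, and 13 of the 14 were lower with treatment (6 of the 13 were above 0 when scaled to the list itself). The summed level of 9 erythroid markers was 124668 to 244502 CPM against 1864 to 2691, and all 9 were higher. Of 11 B and plasma cell markers tested, 10 were higher, with summed levels of 1062 to 1707 against 205 to 275 CPM. Over all genes tested, 25.3% were called lower and 29.9% higher. In bulk RNA, fewer T cells and less receptor RNA per cell cannot be told apart. The part of these other cells in the segment values was not tested.

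Total V expression overlapped between the groups. Summed Trav counts were 316, 277 and 944 in ruxolitinib pools 1, 2 and 3 and 882, 433 and 154 in control pools 4, 5 and 6. In CPM these were 23.1, 21.1 and 59.7 against 48.8, 28.3 and 9.59. The highest ruxolitinib pool was above every control and the lowest control was below every ruxolitinib pool. The means were 34.6 ± 21.7 CPM (SD, n = 3) and 28.9 ± 19.6 CPM (SD, n = 3), and the mean log2 CPM differed by 0.38. The sign of that difference rested on single pools, since it was -0.10 without ruxolitinib pool 3 and -0.27 without control pool 6.

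Summed Traj counts were 23, 13 and 46 in the ruxolitinib pools and 13, 20 and 27 in the controls. In CPM they were 1.68, 0.988 and 2.91 against 0.720, 1.31 and 1.68, which overlapped as well. The J segments are short, with a median deposited length of 61 bases against 359 for the V segments, and the J results below rest on these few reads.

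**Figure D1:**
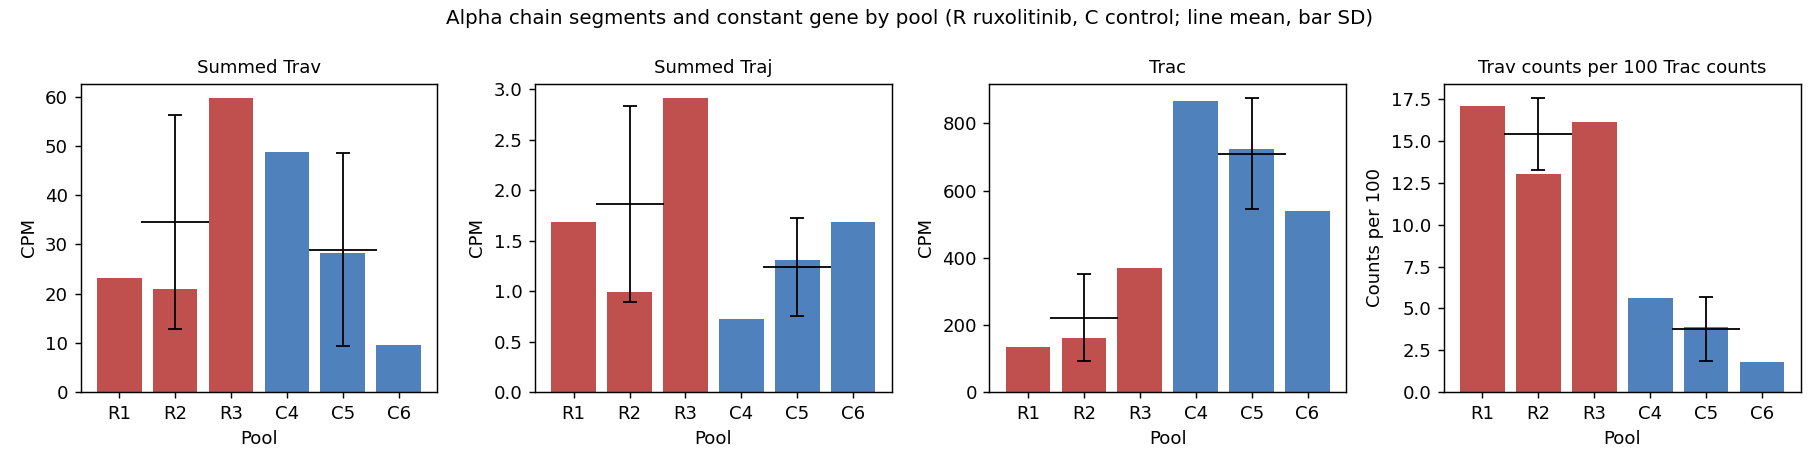
Levels of the alpha chain by pool, with ruxolitinib pools R1 to R3 in red and control pools C4 to C6 in blue: summed Trav CPM, summed Traj CPM, Trac CPM, and Trav counts per 100 Trac counts. Bars are pools, horizontal lines are group means and vertical lines are SD. The Trav and Traj sums overlap between the groups, Trac is lower in all 3 ruxolitinib pools, and Trav per 100 Trac is 13.0 to 17.1 with ruxolitinib against 1.78 to 5.63.

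The constant gene of the same chain moved apart from its V segments. Trac, which encodes the part of the alpha chain that spans the membrane, was at 135, 162 and 370 CPM in the ruxolitinib pools and 868, 723 and 538 CPM in the controls, with no overlap. Its log2 fold change was -1.67 ± 0.39 (SE, adjusted p = 0.00523 by edgeR's quasi-likelihood test). The call ended when libraries were scaled to the summed segments (-2.26, adjusted p = 0.0787, edgeR) or to the T cell identity genes (-0.03, adjusted p = 0.965, edgeR). For every 100 Trac counts there were 17.1, 13.0 and 16.1 Trav counts with ruxolitinib and 5.63, 3.92 and 1.78 in the controls. The group means were 15.4 ± 2.13 (SD, n = 3) and 3.78 ± 1.93 (SD, n = 3). Every ruxolitinib pool was above every control pool, and the mean log2 ratio differed by 2.17, or by 1.70 to 2.53 when any 1 pool was left out. An exact permutation test of 3 against 3 cannot go below 0.1, and none is given for sums over members. Per base of deposited gene length, V coverage was 38.6%, 31.0% and 39.4% of that of Trac with ruxolitinib and 13.7%, 9.44% and 4.27% in the controls.

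The same kind of ratio was formed for the beta chain and for the immunoglobulin kappa and heavy chains to see where the alpha chain stands. For every 100 counts of the beta chain constant genes Trbc1 and Trbc2 there were 26.0, 19.5 and 23.6 Trbv counts with ruxolitinib and 11.2, 6.97 and 2.98 in the controls. Immunoglobulin kappa V segments, which are rearranged in B cells, stood at 41.9, 42.3 and 43.8 counts per 100 Igkc counts against 4.82, 0.584 and 2.38. Immunoglobulin heavy chain V segments stood at 13.3, 13.3 and 11.6 counts per 100 Ighm counts against 0.592, 0.709 and 0.958. In all 4 of these chains the groups did not overlap and the ratio was higher in the ruxolitinib pools, so this is not particular to the alpha chain. No ratio is given for the gamma chain, where V counts were few. Its V segments had 16, 18 and 73 counts with ruxolitinib and 117, 22 and 20 in the controls. Its constant genes had 70, 123 and 465 counts against 1725, 866 and 1107. Between the alpha and beta chains, Trav counts per 100 Trbv counts were 31.4, 21.5 and 25.4 with ruxolitinib and 13.9, 12.4 and 11.4 in the controls. Trac counts per 100 Trbc counts were 47.8, 32.3 and 37.1 against 27.7, 22.0 and 19.1. Counts on genes longer than the median of the tested genes made up 31.7% to 33.7% of the tested counts with ruxolitinib and 28.6% to 29.5% in the controls, and the part of this difference in the ratios was not tested.

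**Figure D2:**
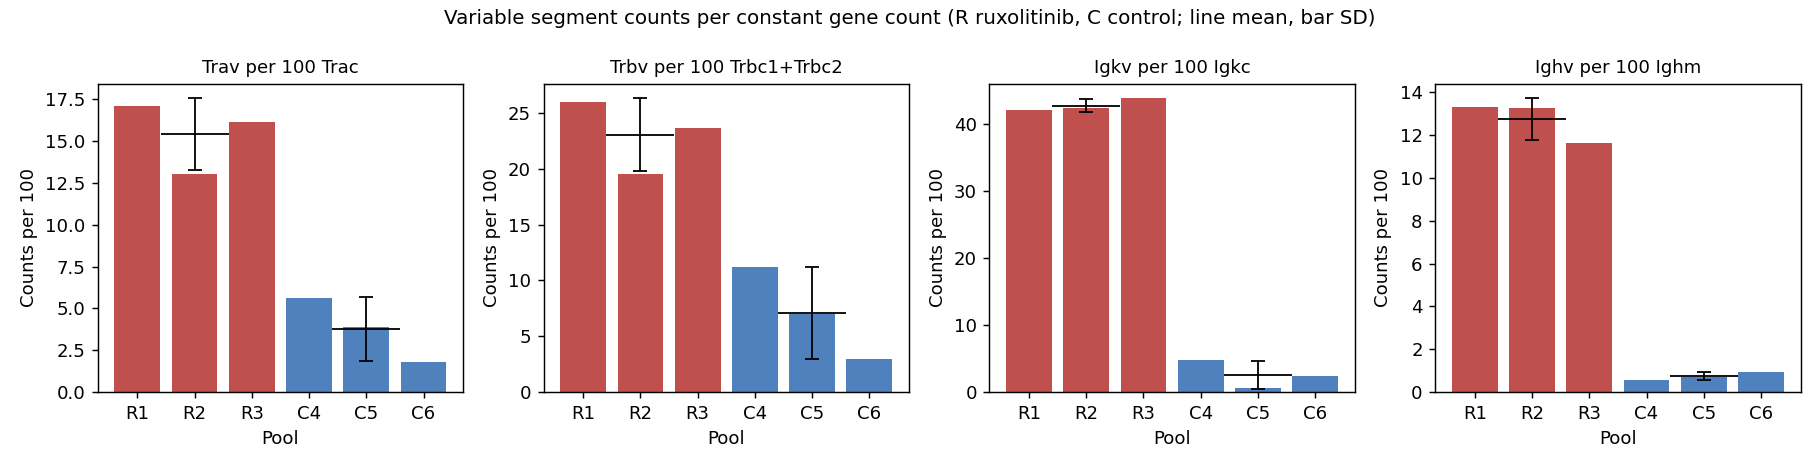
Counts on variable segments per 100 counts of the constant gene of the same chain, by pool (R1 to R3 ruxolitinib, C4 to C6 control), for T cell receptor alpha and beta and for immunoglobulin kappa and heavy chain. Horizontal lines are group means and vertical lines SD. In each of the 4 panels the 3 ruxolitinib bars are above the 3 control bars.

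Among single segments, Trav3-3 fell with ruxolitinib. Trav3-3 (ENSMUSG00000094828) had 9, 5 and 7 counts in ruxolitinib pools 1, 2 and 3 and 55, 46 and 32 in control pools 4, 5 and 6. These were 0.659, 0.380 and 0.442 CPM against 3.05, 3.01 and 1.99 CPM, means of 0.494 ± 0.146 and 2.68 ± 0.597 (SD, n = 3 each), with no overlap. The log2 fold change was -2.42 ± 0.48 (SE), with an adjusted p of 0.00218 by edgeR's quasi-likelihood test over all 13480 genes tested. Trav3-3 met the filter on low counts in the control pools alone. It thus entered the test only through the group where it was high. Relative to all V reads, Trav3-3 made up 2.85%, 1.81% and 0.742% with ruxolitinib and 6.24%, 10.6% and 20.8% in the controls. It was the only one of the 10 tested members called lower, where 25.3% of all tested genes were called lower, and 0 of 10 were called higher, where 29.9% of all genes were. At an unadjusted p under 0.05 (edgeR) there were 2 members, Trav3-3 lower and Trav7-4 higher. Of all 13480 tested genes, 8198 were under it. DESeq2 also called 1 lower and 0 higher (25.9% and 31.1% of all genes). With limma-voom 2 were lower, Trav3-3 and Trav9-4, and 0 higher (25.4% and 31.0% of all genes). The call on Trav3-3 stood without each pool in turn (adjusted p 0.00167 to 0.0143). With libraries scaled to the summed segment counts, its log2 fold change was -2.76 ± 1.10 (adjusted p = 0.0713), where 0 members were called and 4.92% of all genes were lower and 9.41% higher. With libraries scaled to the T cell identity genes the log2 fold change was -0.56 ± 0.84 (adjusted p = 0.551), by the same test.

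The other 9 tested segments did not pass the test. Trav7-4 had 41, 7 and 26 counts with ruxolitinib and 16, 7 and 5 in the controls, which overlapped since ruxolitinib pool 2 was below control pool 4, and a log2 fold change of 1.62 ± 0.69 (adjusted p = 0.0704, edgeR). Trav9-4 had 13, 2 and 3 counts against 23, 22 and 14, where pool 1 overlapped the controls once scaled to CPM, and a log2 fold change of -1.47 ± 0.70 (adjusted p = 0.102, edgeR). It was below the threshold with limma-voom (adjusted p = 0.0484). Trav12-2 had 5, 34 and 66 counts against 9, 26 and 10, with ruxolitinib pool 1 below every control. Its log2 fold change was 1.35 ± 0.79. Trav16n had 16, 12 and 41 counts against 21, 15 and 4, and a log2 fold change of 0.96 ± 0.65. Trav8-1 had 4, 9 and 40 counts against 17, 10 and 18, where pool 3 alone was above the controls. Trav10, Trav16, Trav5-4 and Trav13-1 had log2 fold changes of 1.60, 0.80, 0.80 and 0.36, with at least 1 control pool at 0 for each of them. The median log2 fold change of the 10 tested members was 0.80 and that of all tested genes 0.03. These 10 are the members with enough counts, not all members.

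Scaling to the T cell identity genes sets each segment against the RNA of 14 T cell genes. The list includes Cd8a and Cd8b1, so not every T cell carries all of it. This scaling moved the median of all tested genes from 0.03 to 1.90 and that of the 10 members from 0.80 to 2.63. Under it 6 members were called higher (Trav5-4, Trav7-4, Trav10, Trav12-2, Trav16 and Trav16n) and 0 lower, where 68.0% of all genes were called higher and 0.616% lower.

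A fit with no filter on low counts reached all 123 members with a count, at the price of very low values. It called 5 members lower, where 15.6% of all 23032 genes were lower, and 6 higher, where 20.0% were. Those lower were Trav3-3, Trav4-2, Trav4-3, Trav8n-2 and Trav21-dv12. Those higher were Trav9-2, Trav7-3, Trav17, Trav14d-3-dv8, Trav6d-5 and Traj1. Several of these rested on 1 pool. Trav17 had 61 of its 70 counts in pool 3, Trav14d-3-dv8 had 37 of 45 in pool 3, Trav4-2 had 21 of 22 in pool 4, and Trav8n-2 had 32 of 39 in pool 5. Trav9-2 was spread more widely, with 45, 7 and 45 counts against 11, 5 and 5, and so was Trav4-3, with 0, 0 and 1 counts against 17, 17 and 4.

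The leading V segment differed from pool to pool. Trav9-2 held 45 counts in pool 1, 14.2% of its V counts (95% Clopper-Pearson interval 10.6% to 18.6%). Per base, Trav7-4 with 41 counts was above it in that pool, and in the other 5 pools the order by count and per base gave the same first segment. Trav12-2 led pool 2 with 34 counts, 12.3% of the V counts. Trav5-1 led pool 3 with 165 counts, 17.5% (15.1% to 20.1%), and held 2 and 0 counts in the other ruxolitinib pools and 10, 17 and 0 in control pools 4, 5 and 6. Trav14n-3 led control pool 4 with 132 counts, 15.0% (12.7% to 17.5%), and held 1 and 2 counts in the other controls and 0, 2 and 37 in ruxolitinib pools 1, 2 and 3. Trav3-3 led both other controls, with 46 counts or 10.6% in pool 5 and 32 counts or 20.8% (14.7% to 28.0%) in pool 6. The 3 ruxolitinib pools thus had 3 different leading segments, and pools 5 and 6 shared 1. The intervals and floors given here reflect counting error alone, because several reads can stem from 1 molecule.

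**Figure D3:**
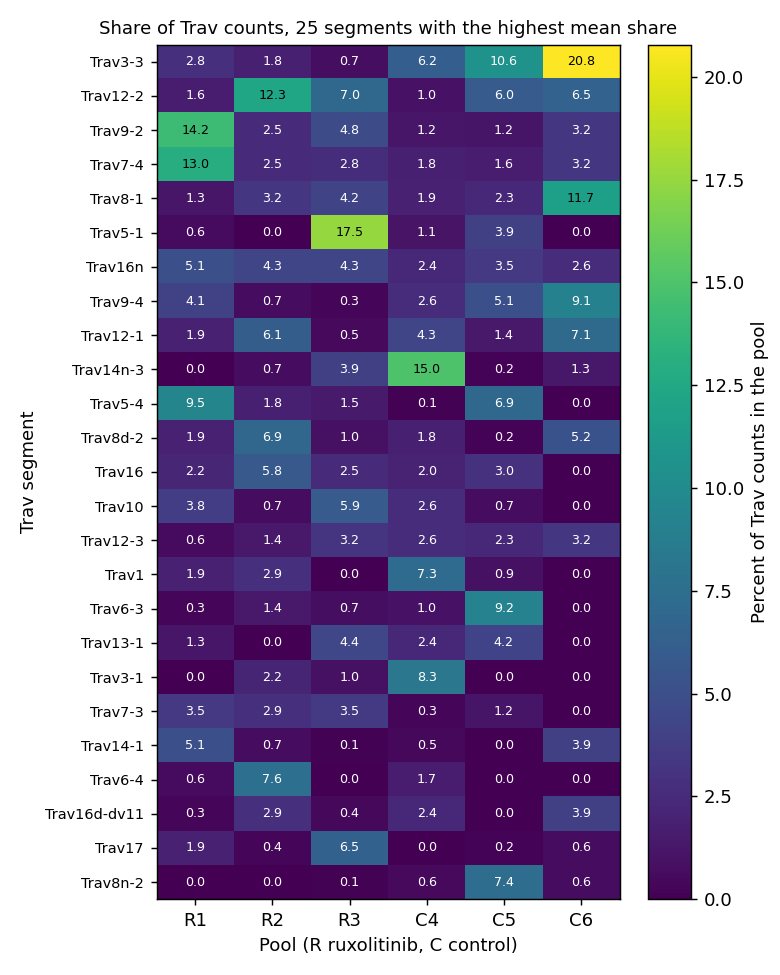
Share of Trav counts, in percent of the pool's Trav total, for the 25 segments with the highest mean share over the 6 pools. Columns are pools (R1 to R3 ruxolitinib, C4 to C6 control) and colour and printed value give the share. The top row, Trav3-3, is at 0.7 to 2.8 in the ruxolitinib columns and 6.2 to 20.8 in the control columns, and most other bright cells stand in 1 pool alone.

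Shares of V counts did not overlap between the groups for 6 of the 86 Trav with a count, where the CPM of 66.0% of all tested genes did not overlap. The 2 figures differ in measure and in depth, since only 10 Trav passed the filter. A segment at 0 in a pool of each group overlaps by necessity. Trav3-3, Trav8n-2, Trav4-3 and Trav6-2 had lower shares with ruxolitinib, and Trav7-3 and Trav16n higher ones. Trav7-3 had 11, 8 and 33 counts against 3, 5 and 0. Trav6-2 had 0 counts in the ruxolitinib pools and 9 in the controls, so it was at least 2.59-fold lower (3 counts taken as the floor of the whole group).

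Summed by family, which joins segments of related sequence, 20 of 23 Trav families had counts and 4 did not overlap. This again stands beside 66.0% of all tested genes, by CPM and not by share. The Trav3 family held 2.85%, 5.78% and 2.12% of V counts with ruxolitinib and 14.6%, 11.1% and 21.4% in the controls. Segments other than Trav3-3 carried most of the family's counts in ruxolitinib pools 2 and 3 and in control pool 4. The Trav4 family held 0.633%, 0% and 1.06% against 4.99%, 7.39% and 5.84%. The Trav7 family held 19.9%, 9.39% and 9.22% against 4.99%, 5.31% and 5.84%. The Trav16 family held 7.59%, 13.0% and 7.31% against 6.80%, 6.47% and 6.49%, a narrow gap between the lowest ruxolitinib and the highest control pool. These 4 families were picked by their lack of overlap, so the values are a description.

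The number of V segments in use and their evenness overlapped between the groups. Counts fell on 45, 50 and 61 Trav with ruxolitinib and on 67, 51 and 22 in the controls. At an equal depth of 154 V counts, the total of pool 6, the expected number was 36.9, 41.9 and 36.7 against 42.8, 37.7 and 22.0. Control pool 6 was the only pool below 36. The effective number of V segments, which is the inverse of the unbiased Simpson index and counts segments as if all were equally used, was 16.8, 23.5 and 16.8 with ruxolitinib and 20.1, 21.4 and 12.0 in the controls. Shannon evenness, which is 1 where all 128 Trav are used equally, was 0.662, 0.708 and 0.678 against 0.720, 0.690 and 0.561. Thinned to 154 counts it was 0.644, 0.690 and 0.646 against 0.684, 0.667 and 0.561. The 5 leading segments held 46.8%, 38.6% and 41.6% of V counts against 41.0%, 40.2% and 55.2%. On each of these measures pool 6 was the least even, and the other 5 pools were mixed by group.

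The direction of the group difference in diversity rested on control pool 6. The mean effective number was 1.18 higher with ruxolitinib with all pools and 1.75 lower without pool 6 (a difference of -1.75), and it also turned to -1.08 without ruxolitinib pool 2. The mean number of segments at equal depth was 4.31 higher with all pools and differed by -1.79 without pool 6, and evenness differed by 0.0259 and by -0.0221.

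**Figure D4:**
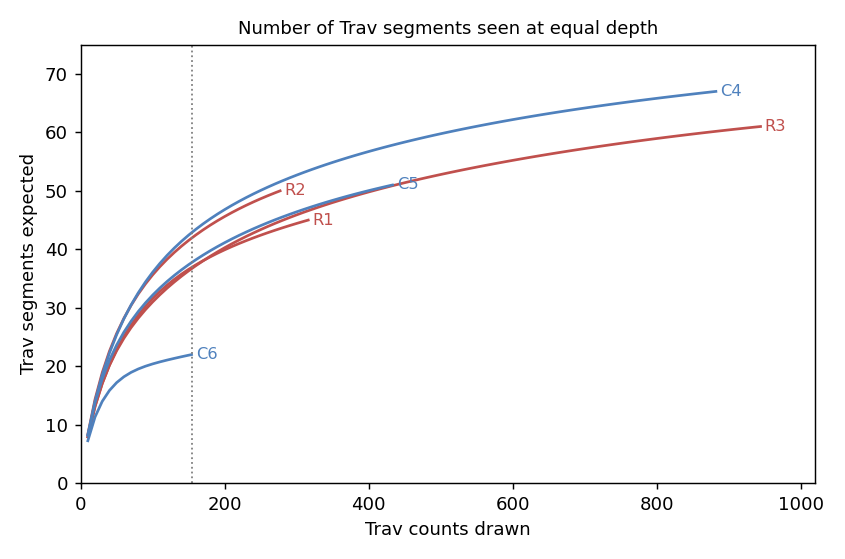
Expected number of different Trav segments (vertical axis) when a given number of Trav counts is drawn from a pool (horizontal axis), for ruxolitinib pools R1 to R3 in red and control pools C4 to C6 in blue. The dotted line marks 154 counts, where 5 curves stand between 36.7 and 42.8 segments and C6 stands at 22.0.

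The likeness of V use between 2 pools covered overlapping ranges within and between the groups. The Morisita index, which is near 1 for 2 pools with the same shares and 0 for pools with no segment in common, was 0.41 to 0.44 for the 3 pairs of ruxolitinib pools and 0.39 to 0.62 for the 3 pairs of controls. For the 9 pairs between groups it was 0.26 to 0.47, with a median of 0.42. The pairs share pools, so these values are given without a test.

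Position along the locus did not separate the groups. The segments nearest the J cluster, the last 42 Trav in genome order, held 71.2%, 50.9% and 54.9% of V counts with ruxolitinib and 41.7%, 62.8% and 75.3% in the controls. Those farthest from it held 8.86%, 11.9% and 23.3% against 24.4%, 9.01% and 6.49%. The most J-proximal use was in control pool 6 and ruxolitinib pool 1, and the most distal use in control pool 4 and ruxolitinib pool 3.

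The J reads were spread differently at the 3′ end of the cluster. Traj1, Traj2 and Traj3, the 3 segments nearest Trac, together had 8, 8 and 13 counts with ruxolitinib and 0, 0 and 0 in the controls. In the controls this is 0 of 13, 0 of 20 and 0 of 27 J counts, which allows shares of up to 23.1%, 15.0% and 11.1%. Over the groups, 29 counts against 0 is at least 11.2-fold higher with the same floor. These 3 were grouped after their values were seen, and no test is given for the sum. Traj1, the pseudogene closest to Trac, had 1, 5 and 8 counts against 0, at least 5.41-fold higher. In the fit with no filter it passed the test (adjusted p = 0.0235, edgeR). Traj2 had 2, 3 and 2 counts and Traj3 had 5, 0 and 3, against 0 in each control. Trac itself was lower in the same pools. The 9 J pseudogenes had counts only through Traj1.

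Farther 5′, Traj43 had 3, 1 and 6 counts with ruxolitinib and 0 in the controls, at least 3.86-fold higher. With Traj1 and Traj2 it was 1 of 3 Traj, of 37 with a count, whose shares did not overlap, where the CPM of 66.0% of all tested genes did not. No Traj passed the filter, so these figures too differ in measure and in depth. Single pools dominated the other leading J segments. Traj20 had 12 of the 27 J counts of control pool 6, 44.4% (25.5% to 64.7%), against 2 counts or fewer in each other pool. Traj21, with 7 counts, and Traj24, with 4, were next in pool 6. Traj5 had 14 of the 46 J counts of ruxolitinib pool 3, 30.4% (17.7% to 45.8%). The first 30 Traj in genome order held 21.7%, 15.4% and 26.1% of J counts with ruxolitinib and 46.2%, 40.0% and 0% in the controls, where 0 of 27 allows up to 11.1%. The most 5′ segment with a count was Traj58, with 2 counts in pool 4. The effective number of J segments was 15.8, 5.57 and 7.34 against 15.6, 47.5 and 3.66, which 13 to 46 reads can place only roughly. Pool 6 was the least diverse for J as for V.

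**Figure D5:**
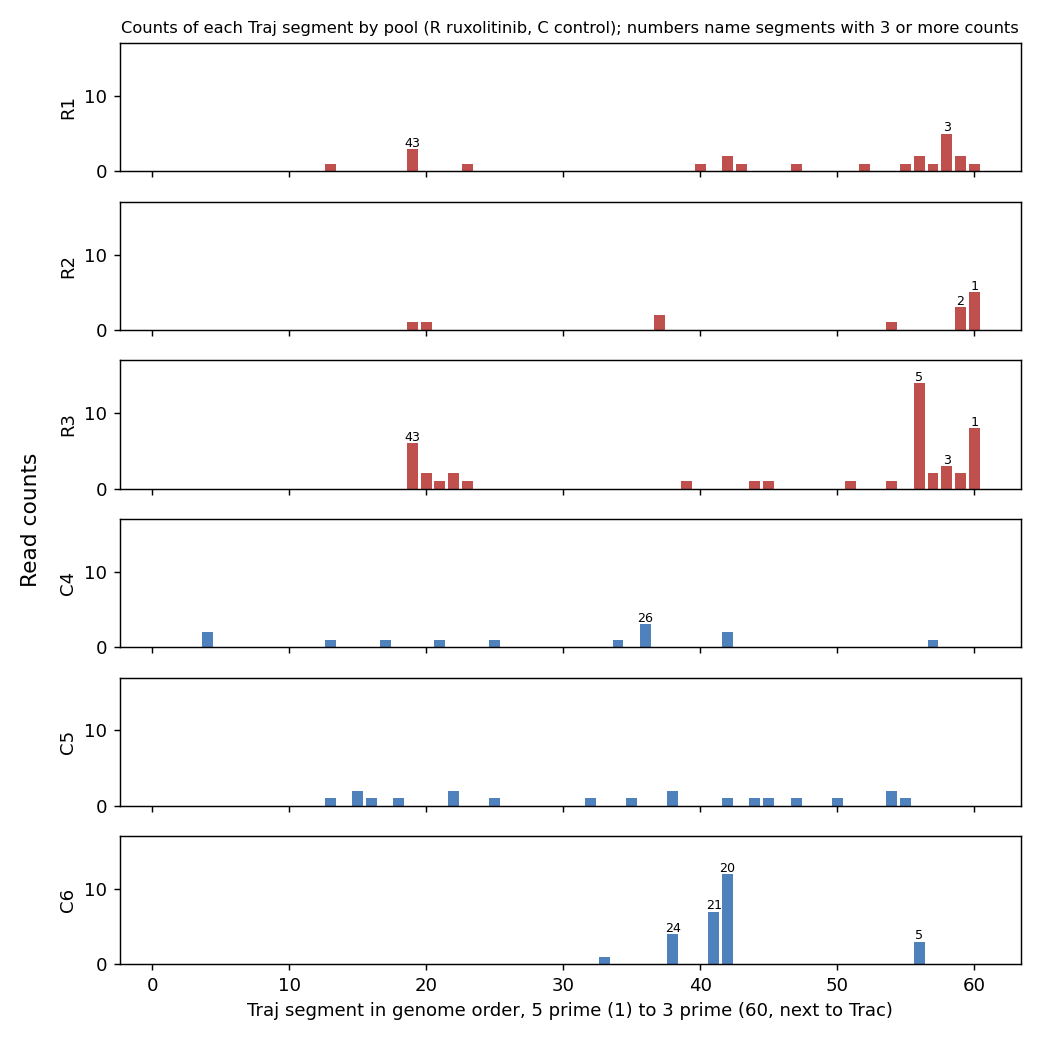
Read counts (vertical axis) of each of the 60 Traj segments in genome order from 5′ (left) to 3′ (right, next to Trac), in ruxolitinib pools R1 to R3 and control pools C4 to C6. Numbers above bars name the Traj segments with 3 or more counts. The 3 right-most positions hold 8, 8 and 13 counts in R1 to R3 and 0 in C4 to C6, and C6 has most of its reads on Traj20, Traj21 and Traj24.

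The semi-invariant receptors left few reads. The chain of invariant natural killer T cells joins Trav11 or its copy Trav11d to Traj18. Trav11 had 0 counts in all 6 pools and Trav11d had 1, in pool 1, while Traj18 had 1 count in pool 3 and 1 in pool 5. The chain of mucosal-associated invariant T cells joins Trav1 to Traj33. Traj33 had 0 counts in all pools, and Trav1 had 6, 8 and 0 counts with ruxolitinib and 64, 4 and 0 in the controls, with most of them in pool 4. Of 5 tested genes linked to these cells, 2 were lower (Sh2d1a, an adaptor of SLAM receptors, and Il18rap, a subunit of the IL-18 receptor) and 1 higher (Mr1, the molecule that presents to mucosal-associated invariant T cells). Il18rap was above 0 when scaled to the T cell identity genes. These counts stand beside 25.3% of all tested genes lower and 29.9% higher.

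Near-identical copies limit what a single Trav value says. The mouse locus carries repeated blocks of V segments, marked d and n in the symbols. Over their last 270 bases, 75 of the 128 Trav had another Trav at 98% identity or more, and 38 of them had one at 100%. Of those 75, 30 had no count (40.0%) and the median total over the 6 pools was 1. Of the other 53, 12 had no count (22.6%) and the median was 20. The sources used here do not say how reads that match several genes were counted. Counts on d copies made up 5.06%, 17.7% and 8.58% of V counts with ruxolitinib and 6.80%, 1.85% and 9.74% in the controls, and n copies 12.7%, 14.1% and 12.3% against 23.9%, 16.4% and 9.09%. Trav3-3 is 98.5% identical to Trav3d-3, which is itself 100% identical to Trav3n-3. The count of Trav3-3 is thus uncertain by the reads that match these copies as well.

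The Trav14-3 group shows how small the differences are. Trav14n-3 had 132 of its counts in pool 4 and Trav14d-3-dv8 had 37 of 45 in pool 3. The last 60 bases of the 3 copies are printed with the 4 differing positions in capitals. The genes lie at chr14:53763173-53763694 (Trav14-3), chr14:53078452-53079045 (Trav14d-3-dv8) and chr14:53370077-53370575 (Trav14n-3).
Trav14-3: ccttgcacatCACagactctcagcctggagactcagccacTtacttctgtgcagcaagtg
Trav14d-3-dv8: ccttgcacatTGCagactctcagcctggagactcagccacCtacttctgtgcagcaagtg
Trav14n-3: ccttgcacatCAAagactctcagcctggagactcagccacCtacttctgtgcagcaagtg
Over 270 bases Trav14n-3 was 98.1% identical to Trav14-3 and 96.7% identical to Trav14d-3-dv8, and the latter 2 were 97.0% identical to each other.

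The other genes of the receptor were lower with ruxolitinib. All 7 tested genes of the list of receptor constant and CD3 genes were lower with TMM scaling, and none of the 7 calls held when libraries were scaled to the T cell identity genes. Under that scaling, whose list includes the 4 CD3 genes, Cd3e, Cd3g and Cd247 were above 0, and Trbc1, Trbc2 and Cd3d were at -0.61, -0.85 and -0.78 (adjusted p = 0.322, 0.166 and 0.201, edgeR). The call on Cd3g also ended with library totals alone (adjusted p = 0.0550), with no filter (0.0670) and without pools 1, 2, 4 or 5 (0.0690 to 0.134). That on Cd247 ended without pools 1 or 2 (adjusted p = 0.0600 and 0.0507), that on Cd3e without pool 1 (0.0572), and that on Trbc1 with no filter (0.0859) and without pool 2 (0.0507). Scaled to the summed segments, the calls on Cd3e, Cd3g and Cd247 ended (adjusted p = 0.110, 0.174 and 0.0975, edgeR), as did that on Trac. The log2 fold changes were -2.07, -1.79, -2.16 and -2.26 in that order, farther from 0 than with TMM scaling. The median log2 fold change of the list was -1.67 against 0.03 over all genes. With TMM scaling 25.3% of all tested genes were lower and 29.9% higher. The gamma delta genes below stand beside the same shares. Trbc2, a beta chain constant gene, had a log2 fold change of -2.55 ± 0.40 and Cd3d, a chain of the signalling complex, of -2.36 ± 0.40 (adjusted p = 0.000638 and 0.000938, edgeR). The co-receptor chains Cd8a and Cd8b1, on which the cells were selected, had log2 fold changes of -1.72 and -1.73. Scaled to the T cell identity genes they were at -0.11 and -0.12 (adjusted p = 0.867 and 0.847, edgeR). Both belong to that list, so this scaling sets them partly against themselves. Scaled to the summed segments, their log2 fold changes were -2.41 and -2.43, farther from 0, and both calls ended (adjusted p = 0.0593 and 0.0573, edgeR). The delta constant gene Trdc was at 0.190 to 0.608 CPM with ruxolitinib and 0.166 to 0.785 CPM in the controls and was not tested. Of 5 tested genes of gamma delta T cells, Tcrg-C1 and Tcrg-C2 were lower, and Blk and Sox13, of which Blk is also a B cell kinase, were higher. Tcrg-C2 stayed lower when scaled to the T cell identity genes (-1.25, adjusted p = 0.0457, edgeR). Its call ended with no filter (adjusted p = 0.0877, edgeR). Tcrg-C1 met the filter on low counts in the control pools alone, and Blk and Sox13 in the ruxolitinib pools alone.

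Beta chain V segments had 1005 to 6342 counts a pool, more than the alpha V segments in each pool. Of 35 Trbv, 17 were tested and 0 were called in either direction, where 25.3% of all tested genes were lower and 29.9% higher. At an unadjusted p under 0.05 (edgeR) there were 3 Trbv, where 8198 of all 13480 tested genes were. The median log2 fold change of the 17 was -0.78. Of 3 Trbj tested, Trbj2-7 was lower. Of 7 gamma chain V segments, only Trgv2 was tested, and it did not pass the test (log2 fold change -0.42 ± 0.80).

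Of the genes that make the joints, 11 recombination and end-joining genes were tested. Rag1, which encodes the recombinase subunit that cuts the DNA, had 31, 14 and 20 counts with ruxolitinib and 0 in the controls. It was at least 25.1-fold higher (adjusted p = 0.000887, edgeR). Rag1 met the filter on low counts in the ruxolitinib pools alone, the group where it was high. Dntt, which adds bases at the joint, had 10, 15 and 3 counts against 0 and was not tested, and Rag2 had 2, 0 and 4 counts against 0. Paxx, Poll and Xrcc4, which act in end joining, were lower, with log2 fold changes of -1.71, -1.39 and -0.97, and all 3 were above 0 when scaled to the T cell identity genes. The list's median was -0.11. With 11 tested, 3 lower and 1 higher stand beside 25.3% and 29.9% of all tested genes. The same shares stand beside the immature thymocyte genes below. Ptcra, the surrogate alpha chain of immature thymocytes, had 0 counts in all pools, and markers of B cells, which also use these genes, were higher in the same pools as given above. Of the 4 immature thymocyte genes tested, Rag1 and Cd4 were higher, and Cd8a and Themis were lower, Themis being above 0 when scaled to the T cell identity genes.

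Among 14 transcription factors known to act at the alpha locus, 6 were lower (Lef1, Cbfb, Bcl11b, Ets1, Gata3 and Runx3) and 2 higher (Tcf12 and Tcf7), and of the 6 all but Lef1 were above 0 when scaled to the T cell identity genes. Lef1, a factor that binds the alpha enhancer, had a log2 fold change of -2.04 ± 0.30. Tcf12, an E protein, had one of 1.31 ± 0.21. The list's median was -0.33. Of all tested genes, 25.3% were lower and 29.9% higher, and the lists below stand beside the same shares. Markers of the other cells that the CD8 beads could take along were counted as well. Of 5 CD4 T cell genes tested, 0 were lower and 2 higher (Cd4 and Zbtb7b). Of 6 natural killer cell genes, 3 were lower and 2 higher. Of 8 plasmacytoid dendritic cell genes, 1 was lower and 6 higher, and of 11 monocyte, macrophage and neutrophil genes, 0 were lower and 9 higher.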

How the data were processed

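The authors deposited 1 table of raw read counts per gene for 6 libraries, with gene length and biotype. Per the labels' protocols, the library kit was NEBNext Ultra II. Reads were aligned with HISAT2 2.0.5 to mm10, per the submitters' processing notes. The sources used here do not give the counting program, its strand setting or its treatment of reads matching several genes. P-values measure the spread between pools.

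The test across genes was run in R 4.3.3 with edgeR 4.0.16 (filterByExpr, TMM, robust glmQLFit, glmQLFTest, group as the only term) over 13480 genes, with a Benjamini-Hochberg adjusted p under 0.05. Sums, shares and diversity measures are given per pool without a test. Alternatives were other scalings and filters, DESeq2 1.42.0, limma-voom (limma 3.58.1), sums by family, per-base levels, and leaving out each pool. The edgeR script was run on simulated counts that gave all genes 1 common spread, as a check of the code. That run does not bear on segments with few and uneven counts. Folds against a group at 0 use a floor of 3 counts over the group. Depth limits single segments to a few reads.

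Genes named are the 8 Trav and 6 Traj with the highest mean share, the leading Trav of each pool, called members, up to 6 Trav with non-overlapping shares, the segments of invariant chains, the first and last Traj with a count, receptor, CD3, CD8 and recombination genes, and up to 2 of each other list. Others named, such as Traj21, Traj24, the Trav14-3 copies and further members of lists, were chosen after their values were seen. The members and lists were chosen with earlier results of these data known. The result of 1 listed gene is not reported here.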

Additional observations from a re-analysis of the deposited data

How the results depend on the processing

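No paired analysis was possible because the ruxolitinib pools are numbered 1 to 3 and the control pools 4 to 6, so no number is shared. The count of members called lower (1) was 0 with libraries scaled to the summed segments, 0 scaled to T cell identity genes, 5 with no filter, 2 with limma-voom, and 1 to 3 when a pool was left out. The count called higher (0) was 6 scaled to T cell identity genes, 6 with no filter, and 0 to 4 when a pool was left out. The share of all genes called when a pool was left out is not given here. Those counts therefore cannot be set beside a background. Leaving out a pool also changes how many members pass the filter, from 10 to between 14 and 21. Trav4-3 was called lower without pools 1, 2, 3 or 6, and Trav9-4 without pool 1. Trav7-3 and Trav9-2 were called higher without pools 2, 4, 5 or 6, Trav7-4 without pools 2 or 4, Trav12-2 without pool 1, Trav10 without pool 4 and Trav5-4 without pool 5. Scaled to T cell identity genes, the difference in log2 total CPM was 2.15 for V (0.38 with TMM) and 2.30 for J (0.54 with TMM). Signs were followed through every setting for the 10 tested members and for receptor, CD3, CD8, Cd4 and Rag1 genes. Among these, the log2 fold changes that turned when scaled to T cell identity genes were those of Cd247 (0.083), Cd3e (0.19), Cd3g (0.29) and Trav9-4 (0.54). Genes of other lists that were above 0 under it are given with those lists. Scaled to summed segments, Trav13-1 was at -0.20 and Trav8-1 at -0.65, and with limma-voom they were at -0.062 and -0.070. When a pool was left out, Trav13-1 ranged from -2.34 (without ruxolitinib pool 3; -0.21 without control pool 6) to 0.92, and Trav8-1 from -0.89 (without ruxolitinib pool 3) to 0.88. None of the turned values printed in this section passed the test. The cause of these changes was not tested, other than that the no-filter fit tests more genes. Summed by family, the effective number of V segments differed by -0.94 instead of 1.18. The share of J counts in the first 30 Traj differed by -7.65 percentage points, by -22.0 (without control pool 6) to 1.07 (without control pool 4) when a pool was left out, with -2.01 without control pool 5 and -4.80 without ruxolitinib pool 2, and by -2.28 without pseudogenes. That of V counts nearest the J cluster differed by -0.963, and by -10.1 to 6.72 when a pool was left out. The log2 ratio of V to Trac counts stayed between 1.70 and 2.53. The J values rest on 13 to 46 reads a pool.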
